A study of Mus musculus with 8 samples.

Results

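The genes of 9 matrix proteoglycans, Dcn, Lum, Bgn, Fmod, Ogn, Aspn, Prelp, Vcan and Hspg2, were followed in RNA-Seq of mouse pancreas, and all 9 were found by symbol among the 15047 genes of the expression values. Male mice of 3 groups were compared. LFD mice (n = 3) were C57BL/6 WT on a low-fat diet, HFD mice (n = 3) were C57BL/6 WT on a high-fat diet with 60% of calories from fat, and ob/ob mice (n = 2) were leptin-deficient C57BL/6J; ob/ob on standard chow. Diets started at the age of 4 weeks, and LFD and HFD were given for 10 weeks. In the labels the tissue is given only as pancreas. As the study describes its RNA-Seq, the sequenced pancreata carried mT organoids, injected orthotopically in all groups, which had been grown from mouse pancreatic tumors. Genotype and chow differ together between ob/ob and LFD mice and cannot be told apart. In bulk tissue, fewer cells of a type and less RNA per cell cannot be told apart either.

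Proteoglycans are core proteins that carry long sulfated sugar chains, the glycosaminoglycans. Small leucine-rich proteoglycans bind fibrillar collagen and set how fibrils grow and space, and several of them also hold growth factors such as TGF-beta. They fall into classes by sequence. Dcn (decorin), Bgn (biglycan) and Aspn (asporin) are of class I, Lum (lumican), Fmod (fibromodulin) and Prelp of class II, and Ogn (osteoglycin, also called mimecan) of class III. Vcan (versican) is a large proteoglycan of provisional matrix that binds hyaluronan, and Hspg2 encodes perlecan, the main heparan sulfate proteoglycan of basement membranes. In the pancreas these genes are best known from fibroblasts and stellate cells, and the matrix they build is a large part of the stroma of pancreatic tumors.

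Values are rlog values, on the log2 scale and corrected for library size by the authors, and a difference of 1 is a doubling. Values of single mice are given in the order of their replicate numbers. The medians of the 8 mice lay between 7.09 and 7.25. The mean rlog value of 26 acinar genes was 17.9 to 18.4 in LFD mice, 18.2, 16.1 and 14.2 in the HFD mice and 17.5 and 14.5 in the ob/ob mice. HFD replicate 1 thus stood apart from the other HFD mice, within the range of the LFD mice for acinar genes. The part of acinar content in the results below was not tested except as a covariate.

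Of the 9 genes Vcan had the largest difference between obese and lean mice, about 4-fold in both models, followed by Lum and Bgn, about 2-fold each. Vcan, Lum and Aspn were higher in each of the 5 obese mice than in every LFD mouse. Bgn, Hspg2, Prelp and Fmod had higher means in both models, but at least 1 HFD mouse overlapped with LFD, and for Dcn and Ogn the differences of the means were within 0.29 on the log2 scale in either direction. No gene of the whole set passed an adjusted p-value of 0.05 (limma, Benjamini-Hochberg), so that 0 of the 9 proteoglycans and 0.0% of all genes were called in HFD against LFD, in ob/ob against LFD, in the mean of both obese groups against LFD and in ob/ob against HFD. At an unadjusted p-value under 0.05, 4 of the 9 were higher in HFD than in LFD (Lum, Bgn, Aspn and Vcan), where 11.5% of all genes were, and 0 were lower, where 8.35% were. Between ob/ob and LFD 4 of the 9 were higher (Lum, Aspn, Prelp and Vcan), against 11.6% of all genes, and 0 were lower, against 7.18%. For the mean of both obese groups against LFD 6 of the 9 were higher, against 14.5% of all genes, and 0 were lower, against 10.9%. Without overlap between single mice, 3 of the 9 were higher in HFD than in LFD, where 12.9% of all genes were, 5 of the 9 in ob/ob than in LFD, where 24.1% were, and 3 of the 9 in all obese mice, where 9.4% were. The median log2 difference of the 9 genes was 0.68 for HFD and 0.68 for ob/ob against LFD, while that of all genes was 0.03 and 0.04. The comparisons with LFD share the same 3 LFD mice. Without HFD replicate 1 the adjusted test called 2812 genes between HFD and LFD, 4 of the 9 proteoglycans among them, 89 genes between ob/ob and LFD, with 1 of the 9, and 3326 genes for the mean of both obese groups, with 3 of the 9. With only the ob/ob and LFD mice in the fit 38 genes were called, among them Vcan. With the acinar mean as a covariate the genes higher at an unadjusted p-value under 0.05 were Lum, Ogn, Aspn and Vcan in each comparison with LFD, and Bgn, Prelp and Hspg2 were no longer among them. With this covariate 900 of all 15047 genes were higher at that threshold for HFD, 962 for ob/ob and 1010 for the mean of both obese groups. Median centring turned the split of all genes at that threshold between HFD and LFD from 1728 higher and 1257 lower to 1490 and 1588. Of the 9 proteoglycans 3 were then higher for HFD, 3 for ob/ob and 4 for the mean of both obese groups. Of all genes 1490, 1511 and 1823 were.

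**Figure D1:**
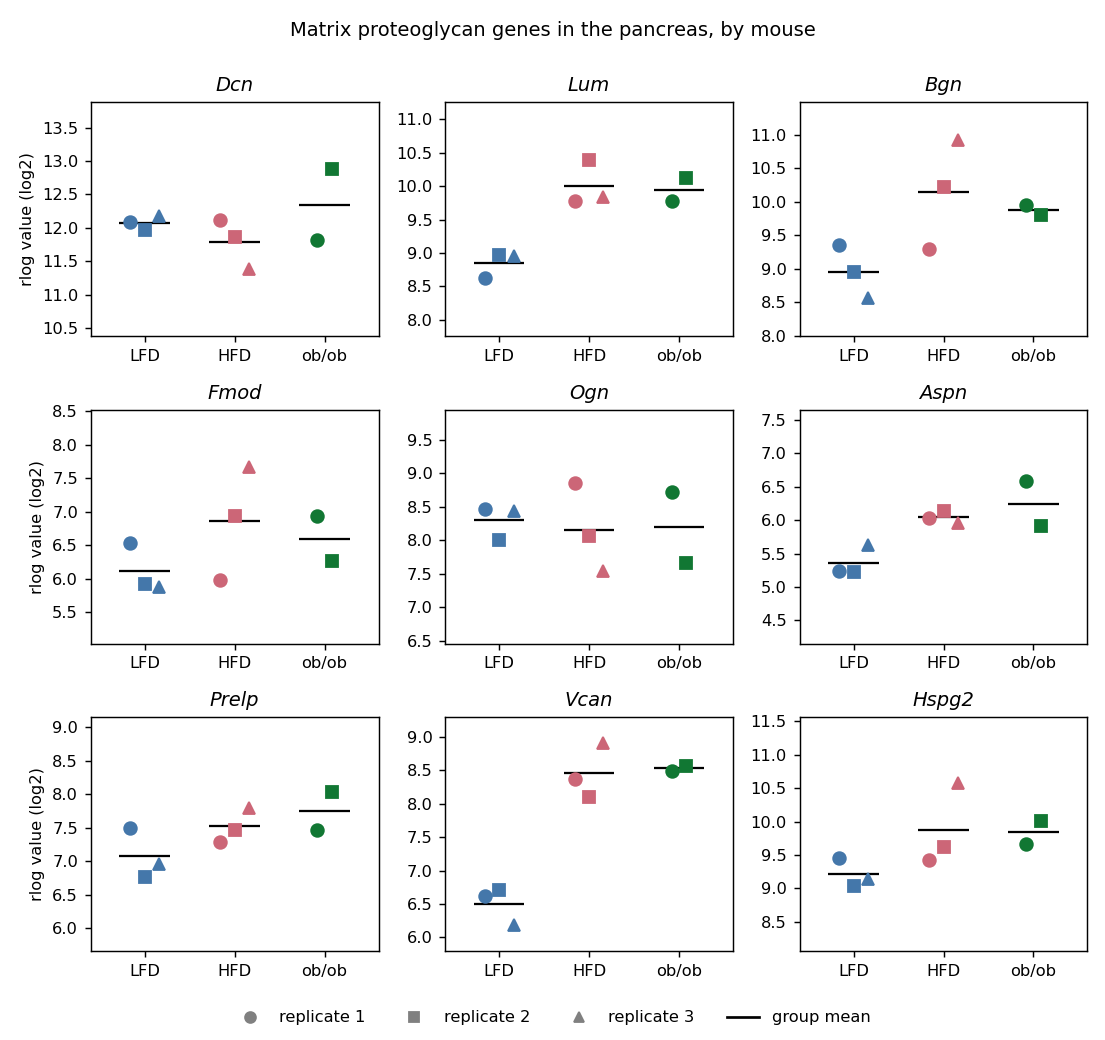
rlog values (log2 scale, y axis) of the 9 proteoglycan genes in LFD, HFD and ob/ob mice (x axis), with 1 symbol for each mouse and a line at the group mean; each panel spans the same number of log2 units. All obese mice lie above all LFD mice for Vcan, Lum and Aspn, whereas Dcn and Ogn overlap.

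Vcan was at 6.62, 6.70 and 6.18 in the LFD mice. It was at 8.36, 8.10 and 8.91 in the HFD mice, and at 8.49 and 8.57 in the ob/ob mice. The gap between the highest LFD and the lowest obese mouse was wider than the spread inside any group. The log2 difference was 1.96 for HFD against LFD (standard error 0.25, 3.89-fold, 95% confidence interval of the fold 2.62 to 5.76, adjusted p = 0.124). It was 2.03 for ob/ob against LFD (standard error 0.28, 4.08-fold, interval 2.63 to 6.34, adjusted p = 0.135), and 1.99 for the mean of both obese groups (standard error 0.22, adjusted p = 0.0598). By unadjusted p-value Vcan ranked 4th, 6th and 2nd of all 15047 genes in these comparisons. Without HFD replicate 1, Vcan had an adjusted p-value of 0.0134 between HFD and LFD and of 0.0439 between ob/ob and LFD, where all alternatives ranged from 0.0134 to 0.466 and from 0.0439 to 0.714. For the mean of both obese groups it was 0.0113 without HFD replicate 1, and 0.0433 without ob/ob replicate 1, in a range of 0.0113 to 0.332. Between ob/ob and HFD the log2 difference of Vcan was 0.07 (interval -0.56 to 0.71). Several splice forms of Vcan differ in the region that carries the chains, and gene-level values do not tell them apart.

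Lum, whose protein binds collagen fibrils and is abundant in cornea and many stromas, was at 8.63, 8.98 and 8.96 in the LFD mice. It was at 9.78, 10.4 and 9.84 in the HFD mice and at 9.78 and 10.1 in the ob/ob mice. The obese mice were all above the LFD mice, with the highest value in HFD replicate 2. The log2 difference of Lum was 1.14 for HFD (standard error 0.21, 2.21-fold, adjusted p = 0.170), 1.09 for ob/ob (standard error 0.24, 2.13-fold, adjusted p = 0.157) and 1.12 for the mean of both (standard error 0.19, adjusted p = 0.0814), each against LFD. Without HFD replicate 1 the adjusted p-value of Lum between HFD and LFD was 0.0165, in a range of 0.0165 to 0.504 over the alternatives. For the mean of both obese groups it was 0.0124 without that mouse and 0.0454 without ob/ob replicate 1, in a range of 0.0124 to 0.361.

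Fmod, which binds collagen at a site shared with lumican, did not separate the groups. It was at 6.53, 5.92 and 5.88 in the LFD mice, at 5.98, 6.94 and 7.68 in the HFD mice, and at 6.94 and 6.26 in the ob/ob mice. HFD replicate 1 lay within the LFD range and HFD replicate 3 was the highest. The log2 difference was 0.75 for HFD (standard error 0.43, adjusted p = 0.348) and 0.49 for ob/ob (standard error 0.48, adjusted p = 0.576) against LFD. Without HFD replicate 1 the difference between HFD and LFD was 1.20 (adjusted p = 0.0478, in a range of 0.0478 to 0.814), so the call rests on leaving out 1 mouse. Without HFD replicate 3 it was 0.35, and with the acinar covariate 0.36 for HFD and 0.06 for ob/ob. Between ob/ob and LFD it was 0.15 without ob/ob replicate 1 and 0.83 without ob/ob replicate 2.

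Prelp, a heparin-binding member found near basement membranes, was at 7.49, 6.77 and 6.95 in the LFD mice. It was at 7.29, 7.47 and 7.80 in HFD and at 7.47 and 8.03 in ob/ob mice. LFD replicate 1 overlapped with both obese groups. The log2 difference was 0.45 for HFD (standard error 0.27, adjusted p = 0.360) and 0.68 for ob/ob (standard error 0.30, adjusted p = 0.264) against LFD. With the acinar covariate the difference of Prelp was 0.14 for HFD and 0.35 for ob/ob (unadjusted p = 0.584 and 0.238), and without ob/ob replicate 2 it was 0.40 for ob/ob (unadjusted p = 0.307).

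Dcn, the decorin gene, whose protein binds collagen and TGF-beta, was at 12.1, 12.0 and 12.2 in the LFD mice. It was at 12.1, 11.9 and 11.4 in the HFD mice and at 11.8 and 12.9 in the ob/ob mice. HFD replicate 1 lay inside the narrow LFD range, ob/ob replicate 2 above it and the other obese mice below it. The lowest value was that of HFD replicate 3. The log2 difference of Dcn was -0.29 for HFD (standard error 0.30, interval -0.98 to 0.40, adjusted p = 0.603) and 0.27 for ob/ob (standard error 0.34, interval -0.51 to 1.04, adjusted p = 0.664) against LFD. For the mean of both obese groups it was -0.01 (interval -0.63 to 0.61), so that a difference of the size of that of Vcan or Lum is outside the interval. That mean joins 2 models with opposite signs. The interval of ob/ob alone reached 1.04, close to the difference of 1.09 for Lum in ob/ob. Without ob/ob replicate 2 the difference between ob/ob and LFD was -0.26, and without ob/ob replicate 1 it was 0.80. Its size and direction thus rest on single mice.

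Bgn, the closest relative of decorin among these genes, which also acts as a signal for innate immune receptors, was at 9.36, 8.95 and 8.57 in the LFD mice. It was at 9.30, 10.2 and 10.9 in the HFD mice and at 9.95 and 9.81 in the ob/ob mice. HFD replicate 1 lay just under the highest LFD mouse and the other 4 obese mice above all LFD mice. The log2 difference of Bgn was 1.19 for HFD (standard error 0.38, 2.28-fold, adjusted p = 0.193) and 0.92 for ob/ob (standard error 0.42, 1.89-fold, adjusted p = 0.278) against LFD. Without HFD replicate 1 the adjusted p-value between HFD and LFD was 0.0161, in a range of 0.0161 to 0.504, and that for the mean of both obese groups was 0.0147, in a range of 0.0147 to 0.551. With the acinar covariate the difference of Bgn was 0.69 for HFD, 0.38 for ob/ob and 0.53 for the mean of both (unadjusted p = 0.0560, 0.306 and 0.107).

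Aspn, a class I member known for binding TGF-beta and calcium and for expression in cancer-associated fibroblasts, was at 5.24, 5.23 and 5.63 in the LFD mice. It was at 6.04, 6.14 and 5.96 in the HFD mice and at 6.58 and 5.92 in the ob/ob mice. No obese mouse was as low as any LFD mouse, and the 3 HFD mice lay closer together than for any other proteoglycan, with an SD of 0.09. The log2 difference was 0.68 for HFD (standard error 0.26, 1.60-fold, adjusted p = 0.222) and 0.88 for ob/ob (standard error 0.29, 1.85-fold, adjusted p = 0.214) against LFD. With quantile normalization the unadjusted p-value of Aspn was 0.134 for HFD and 0.0619 for ob/ob, and without ob/ob replicate 1 the difference for ob/ob was 0.55 (unadjusted p = 0.150). For HFD the unadjusted p-value was 0.0517 without HFD replicate 1 and 0.0836 without HFD replicate 2. It was 0.0863 without LFD replicate 1, 0.0886 without LFD replicate 2 and 0.0556 with median centring. Without LFD replicate 3 or HFD replicate 3 it was 0.0272 and 0.0458. The unadjusted call of Aspn for HFD thus depends on which mice are kept.

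Ogn, which takes part in collagen fibril assembly, was at 8.46, 8.0 and 8.43 in the LFD mice. It was at 8.86, 8.07 and 7.55 in the HFD mice and at 8.72 and 7.66 in the ob/ob mice. The highest values were those of HFD replicate 1 and ob/ob replicate 1, the obese mice with the most acinar transcripts, and the lowest those of HFD replicate 3 and ob/ob replicate 2, the mice with the fewest. The log2 difference of Ogn was -0.14 for HFD (standard error 0.38, adjusted p = 0.853) and -0.11 for ob/ob (standard error 0.42, adjusted p = 0.903) against LFD. After adding the acinar mean to the fit as a covariate it was 0.52 for HFD and 0.60 for ob/ob (unadjusted p = 0.0318 and 0.0253, adjusted p = 0.423 and 0.430), so its direction turned with that setting. The adjusted p-values of Ogn over all alternatives were 0.325 to 0.956 for HFD and 0.417 to 0.983 for ob/ob.

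Hspg2, the perlecan gene, was at 9.45, 9.04 and 9.13 in the LFD mice, at 9.42, 9.62 and 10.6 in the HFD mice, and at 9.67 and 10.0 in the ob/ob mice. HFD replicate 1 lay just under the highest LFD mouse, and the other 4 obese mice were above all LFD mice. The log2 difference was 0.67 for HFD (standard error 0.30, 1.59-fold, adjusted p = 0.258) and 0.63 for ob/ob (standard error 0.33, 1.55-fold, adjusted p = 0.319) against LFD. With the acinar covariate the difference of Hspg2 was 0.22 for HFD, 0.15 for ob/ob and 0.18 for the mean of both (unadjusted p = 0.381 for the latter), and without HFD replicate 3 it was 0.31 for HFD.

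**Figure D2:**
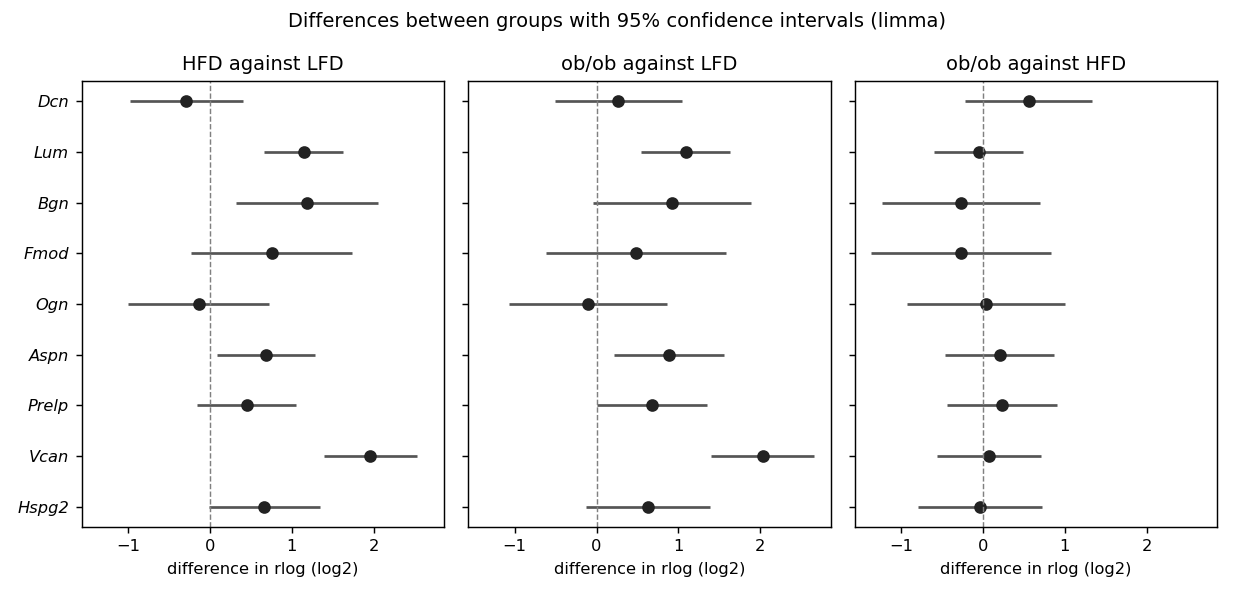
Log2 differences of the rlog values (x axis) of the 9 proteoglycan genes (y axis) for HFD against LFD, ob/ob against LFD and ob/ob against HFD, with limma's 95% confidence interval for each gene, not adjusted for the number of genes. The intervals of Vcan, Lum and Aspn lie above 0 in both comparisons with LFD, and all intervals of ob/ob against HFD include 0.

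Between ob/ob and HFD mice, 0 of the 9 proteoglycans had an unadjusted p-value under 0.05, where 2.28% of all genes were higher and 1.63% lower, and the groups overlapped for each of the 9, where 13.3% of all genes did not overlap. The largest log2 difference was that of Dcn, 0.56 higher in ob/ob (interval -0.22 to 1.33, unadjusted p = 0.138). It was 1.09 without ob/ob replicate 1 (unadjusted p = 0.0113) and 0.025 without ob/ob replicate 2, and so rests on single mice. The others lay between -0.27 (Bgn) and 0.23 (Prelp). The widest interval was that of Fmod, -1.37 to 0.83.

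The levels of the genes were compared per transcript length, as the rlog value minus the log2 of the length in kb of the longest coding transcript of the gene. On this scale Dcn was the highest in LFD mice, at 11.3 ± 0.10 (SD, n = 3). Bgn at 7.68 ± 0.39 and Lum at 7.56 ± 0.19 followed and did not differ beyond their spread. Ogn was at 6.94 ± 0.26, below all values of Lum. Hspg2 at 5.38 ± 0.21 and Prelp at 5.22 ± 0.37 overlapped, as did Fmod at 4.47 ± 0.36 and Aspn at 4.14 ± 0.23. Vcan was the lowest in LFD mice, at 2.86 ± 0.28, and was at 4.82 ± 0.41 in HFD (n = 3) and 4.89 ± 0.06 in ob/ob (n = 2), where it reached the level of Aspn at 4.82 ± 0.09 and 5.03 ± 0.47. In HFD and ob/ob mice the mean of Bgn was 8.87 ± 0.81 and 8.61 ± 0.10, and that of Lum 8.71 ± 0.34 and 8.66 ± 0.24. On the linear scale Dcn made up 77.4% to 81.0% of the sum of the 9 genes per length in LFD mice. In the HFD mice it made up 72.3%, 61.2% and 49.6%, and in the ob/ob mice 64.1% and 79.1%. The share of Bgn reached 26.1% in HFD replicate 3, against 4.84% to 8.47% in LFD mice. A shorter transcript in use than the longest would raise a level on this scale. This matters for long transcripts, as of Hspg2 (14.2 kb) and Vcan (12.4 kb), and Vcan has 8 coding transcripts.

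**Figure D3:**
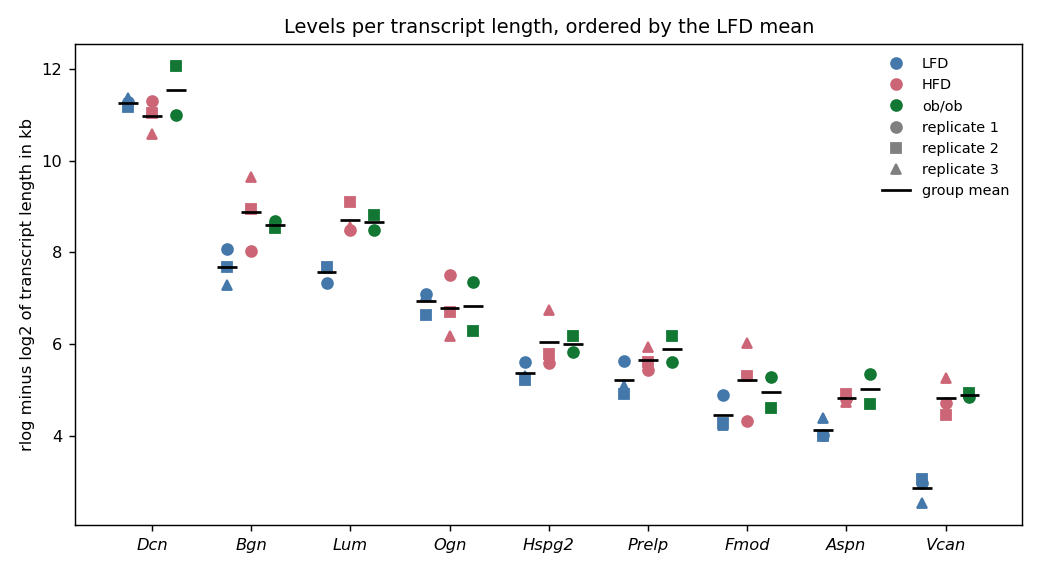
Levels per transcript length (rlog value minus log2 of the transcript length in kb, y axis) of the 9 proteoglycan genes, ordered by the LFD mean (x axis), with 1 symbol for each mouse and a line at each group mean. Dcn lies above all others in every group, and Vcan is the lowest in LFD mice.

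HFD replicate 1, whose acinar genes were at the LFD level, was also looked at alone. Its mean of the 10 macrophage genes was 9.18, against 8.45 to 8.94 in LFD, and that of the 5 fibrillar collagen genes was 10.9, against 9.75 to 10.3. Other means of this mouse lay inside the LFD range. They were 8.16 for fibroblast surface and receptor genes (LFD 7.81 to 8.29) and 8.79 for other basement membrane genes (8.41 to 9.06). Those of mural and smooth muscle genes (6.72) and endothelial genes (7.20) were inside it too (6.62 to 7.30 and 7.06 to 7.43). In this mouse 4 of the 9 proteoglycans were above the highest LFD mouse, Vcan by 1.66, Lum by 0.80, Aspn by 0.41 and Ogn by 0.40, where 26.4% of all genes were above it by any amount. A gap as large as that of Vcan was seen for 15 of the 15047 genes, and one as large as that of Lum for 222. The other 5 proteoglycans lay between 0.56 (Fmod) and 0.03 (Hspg2) under the highest LFD mouse. This is 1 mouse, and no test was made of it.

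Since most of these proteins bind collagen, each proteoglycan was also set against the fibrillar collagens of the same mouse, as its rlog value minus the mean of Col1a1, Col1a2, Col3a1, Col5a1 and Col5a2. The collagen mean was 10.3, 10.1 and 9.75 in the LFD mice, 10.9, 11.7 and 12.5 in the HFD mice, and 11.6 and 12.4 in the ob/ob mice. All 5 collagen genes had an unadjusted p-value under 0.05 in both comparisons with LFD, and 0 of them passed after adjustment. Col1a1 had the largest difference for the mean of both obese groups, 2.17 (limma, adjusted p = 0.0853).

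Relative to the collagens Vcan was at -3.66, -3.39 and -3.57 in LFD, -2.53, -3.56 and -3.59 in HFD and -3.12 and -3.84 in ob/ob mice. Its level relative to collagen thus overlapped between the groups, with HFD replicate 1 highest. Dcn relative to the collagens was at 1.82, 1.88 and 2.43 in LFD, 1.23, 0.20 and -1.11 in HFD, and 0.21 and 0.47 in ob/ob mice. Every obese mouse was below every LFD mouse for Dcn, with a difference of -1.93 in the mean of HFD and of -1.70 in the mean of ob/ob. A lower difference than that of Dcn was seen for 25.5% of all genes in HFD and 65.0% in ob/ob. The median difference on this scale was -1.62 and -1.93 for all genes, and -0.97 and -1.29 for the 9 proteoglycans. The fall of Dcn is thus not particular to it. The mean of Ogn relative to the collagens was -1.74 ± 0.39 in LFD (n = 3), -3.53 ± 1.46 in HFD (n = 3) and -3.82 ± 1.32 in ob/ob (n = 2), with HFD replicate 1 inside the LFD range. Bgn relative to the collagens was -1.08 ± 0.14, -1.54 ± 0.08 and -2.13 ± 0.67, and Lum -1.18 ± 0.43, -1.68 ± 0.85 and -2.06 ± 0.33. Vcan alone of the 9 had a higher mean than in LFD on this scale, while 8 of 9 were lower in HFD and in ob/ob. Most of the transcriptome was lower too, 98.5% and 99.4% of all genes, as the collagens were among the genes with large differences. In HFD 5 of the 9 were below LFD without overlap, where 82.5% of all genes were, and in ob/ob 7 of the 9, where 94.4% were. With 10 fibroblast surface and receptor genes in place of the collagens 0 of the 9 were below LFD without overlap in either model, so the count depends on the reference. The share of all genes on that reference is not given here, so this count cannot be read as particular to the proteoglycans.

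**Figure D4:**
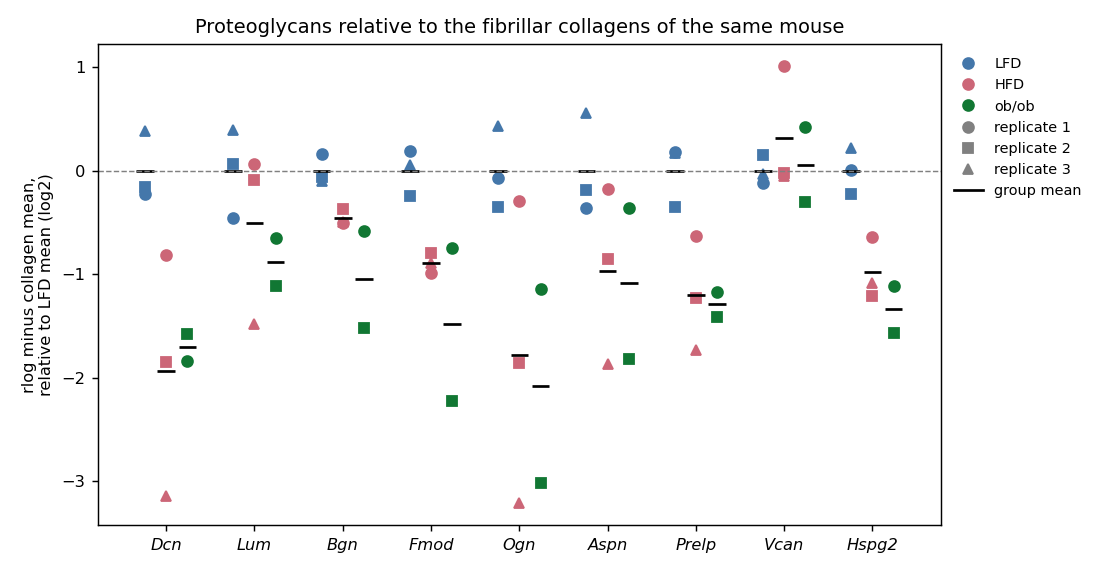
rlog value of each proteoglycan gene (x axis) minus the mean of 5 fibrillar collagen genes in the same mouse, with the LFD mean of each gene set to 0 (y axis, log2 units), 1 symbol for each mouse and a line at each group mean. Vcan overlaps with LFD, with HFD replicate 1 and ob/ob replicate 1 above all LFD mice. All obese mice are below the LFD mice for Dcn, and HFD replicate 3 is the lowest for Dcn and Ogn. On this scale 98.5% of all genes had a lower mean in HFD than in LFD, and 99.4% in ob/ob.

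Genes of this family lie in clusters. Dcn (chromosome 10 of GRCm38, 97479609 to 97518143, plus strand, Gencode M21) and Lum (97565128 to 97572703, plus strand) are neighbours 47.0 kb apart. For the mean of both obese groups against LFD the difference of Lum was 1.12 and that of Dcn was -0.01. Prelp (chromosome 1, 133910304 to 133921414, minus strand) and Fmod (134037254 to 134048277, plus strand) lie 116 kb apart. On chromosome 13 Ecm2 (49504810 to 49532789), Aspn (49544443 to 49567565), Omd (49582462 to 49592822) and Ogn (49608046 to 49624501) follow each other on the plus strand. The 4 genes of this run gave different values. For the mean of both obese groups against LFD the log2 difference was 0.78 for Aspn and -0.12 for Ogn, -0.61 for Ecm2 (unadjusted p = 0.0313, adjusted p = 0.165) and -0.03 for Omd, whose rlog values between 1.48 and 3.03 are low. Vcan (chromosome 13, 89655312 to 89742509, minus strand), Hspg2 (chromosome 4, 137468769 to 137570630, plus strand) and Bgn (chromosome X, 73483602 to 73495933, plus strand) lie apart from these clusters.

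The sequences in front of Vcan, the one of the 9 genes with the largest difference, and of the chromosome 13 neighbours Aspn and Ogn, which differed in pattern, are shown here. They are the 250 bases before the start of the gene in RefSeq (GRCm38.p6), 5′ to 3′ on the strand of the gene, with capitals at matches on either strand of TATAAA (the TATA box), the motif CCAAT (the CCAAT box), the motif GGGCGG (the GC box of Sp1-type factors), the motif TGANTCA (the AP-1 site) or the motif GGAATG (the site of TEAD factors).
Vcan, chr13:89742513-89742762, minus strand: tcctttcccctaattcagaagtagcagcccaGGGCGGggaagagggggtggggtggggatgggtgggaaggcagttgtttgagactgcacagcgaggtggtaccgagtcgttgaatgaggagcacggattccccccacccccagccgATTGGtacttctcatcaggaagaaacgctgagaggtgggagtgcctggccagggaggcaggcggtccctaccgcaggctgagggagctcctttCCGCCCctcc
Aspn, chr13:49544193-49544442, plus strand: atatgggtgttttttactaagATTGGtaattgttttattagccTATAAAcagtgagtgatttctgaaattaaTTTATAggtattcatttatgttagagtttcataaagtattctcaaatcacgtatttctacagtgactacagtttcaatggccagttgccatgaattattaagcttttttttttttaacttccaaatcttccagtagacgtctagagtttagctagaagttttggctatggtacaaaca
Ogn, chr13:49607765-49608014, plus strand: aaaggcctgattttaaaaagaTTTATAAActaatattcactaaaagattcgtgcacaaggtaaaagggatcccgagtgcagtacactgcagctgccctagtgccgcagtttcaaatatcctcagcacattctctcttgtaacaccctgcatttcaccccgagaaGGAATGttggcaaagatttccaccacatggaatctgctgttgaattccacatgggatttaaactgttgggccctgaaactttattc

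The window of Vcan had a GC content of 62.4% and those of Aspn and Ogn 30.0% and 42.0%, against a median of 52.4% over 32851 windows of the same length, of which 1.47% had a lower content than Aspn. GGGCGG was found in 3 of the 7 members with a RefSeq window, Bgn, Vcan and Hspg2, and in 32.7% of all windows. The window of Hspg2 held 5 such matches and that of Bgn 3. CCAAT was found in Aspn, Prelp and Vcan and in 33.8% of all windows. TATAAA was found in Ogn and Aspn and in 12.4% of all windows, and the 2 matches in Ogn overlap on opposite strands. These matches begin 229 and 227 bases before the gene start in Ogn, and 207 and 178 bases before it in Aspn. They are thus named by their letters and not by their place. GGAATG was found in Ogn and in 12.6% of all windows, and TGANTCA in 0 of the 7 and in 6.75% of all windows. A match is a run of letters and not a bound site. Dcn and Lum had no entry.

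The genes with the most similar pattern were taken as those with the smallest root mean square (RMS) difference of rlog values over the 8 mice, after centring each gene on its own mean. For Vcan these were Hmmr, a hyaluronan receptor of dividing cells (RMS difference 0.30), Fbn2, a microfibril protein (0.31), and Nlrp1b, an inflammasome sensor (0.34). For Lum they were Gngt2 (0.12), Ctsh, a lysosomal protease (0.15), and Gng11 (0.16). For Aspn they were Meox1, a transcription factor of mesenchymal cells (0.13), Rpgr (0.15) and D130020L05Rik (0.15). For Bgn they were Phldb2, Cpz and Bcl3 (0.18 to 0.19) and for Fmod Utp14b, Selp and Lrrc55 (0.12 to 0.18). For Dcn they were Ift81, Plag1 and Flrt2 (0.15 to 0.17), for Ogn Eprn, Zfp72 and Zbtb46 (0.10 to 0.15), for Prelp Tubgcp6, Lrp12 and Rbfox2 (0.09 to 0.10), and for Hspg2 Pcyt1a, Mpp1 and Lgr5 (0.10 to 0.12). Genes that vary little come close to each other by this measure. Among the 9 proteoglycans the closest pairs were Prelp and Hspg2 (0.24) and Bgn and Fmod (0.27), and the most distant pair was Ogn and Vcan (1.19). Dcn and Lum, neighbours on chromosome 10, were at 0.70, and by nearness to Lum Dcn ranked 8937th among all genes.

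Other proteoglycan genes were counted over lists chosen with earlier results of these data known, at an unadjusted p-value under 0.05 for the mean of both obese groups against LFD, where 14.5% of all genes were higher and 10.9% lower. By limma with Benjamini-Hochberg adjustment 0 genes were called in each list. Of the other small leucine-rich proteoglycans 6 of 11 were measured, of which 0 were higher and 1 lower, Ecm2, with a median log2 difference of -0.24. Podnl1 (0.87) and Tsku (0.68) had the largest differences, and Podnl1 rests on ob/ob replicate 2, at 6.79 against 2.44 to 4.25 in the other obese mice. Of the other hyalectans and link proteins 4 of 7 were measured, with 0 higher and 1 lower, Hapln4 (-1.52), and Hapln1 at 0.59. Acan, the aggrecan gene of cartilage, had the largest mean difference, 2.14 (standard error 1.39, unadjusted p = 0.160), which rests on single mice. Acan was at 3.93 to 4.52 in LFD, at 4.05, 4.85 and 10.8 in the HFD mice, and at 4.96 and 7.44 in the ob/ob mice. Of the basement membrane proteoglycans beside Hspg2, 2 of 3 were higher, Col18a1 by 1.40 and Col15a1 by 1.36, and Agrn (agrin) had a difference of 0.46. Of 14 measured cell surface and intracellular proteoglycans 5 were higher and 0 lower, led by Srgn, the serglycin of blood cell granules (1.40, adjusted p = 0.0996), and Cd44, a hyaluronan receptor (1.30, adjusted p = 0.144), with Gpc3 lowest (-0.53). Of 6 other secreted proteoglycans 0 were higher and 0 lower, with Prg4 at 0.35 and Smoc1 at -1.10. Spock2 had a mean of 0.37 from unlike values in the models, -0.50 for HFD (unadjusted p = 0.120) and 1.24 for ob/ob (unadjusted p = 0.00471). It was at 5.86 to 6.58 in LFD, 5.52 to 5.98 in HFD and 7.83 and 7.12 in ob/ob mice, a difference of 1.74 between ob/ob and HFD (standard error 0.33, adjusted p = 0.883).

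The enzymes that build the chains were counted in the same way, where 14.5% of all genes were higher and 10.9% lower. Whether chain types differ was not tested, and the lists are short. Of the 7 genes of the linker to the core protein 0 were higher and 3 lower, with Xylt2 (0.14) and B4galt7 (0.13) at the upper end and Pxylp1 lowest (-0.70). Of 15 genes of chondroitin and dermatan sulfate synthesis 6 were higher and 0 lower. Dse, the epimerase that turns chondroitin into dermatan sulfate, the chain type of decorin and biglycan, was at 7.50 to 7.86 in LFD, 8.21 to 8.96 in HFD and 8.97 and 9.30 in ob/ob mice, with all obese mice above LFD (1.18, standard error 0.21, adjusted p = 0.0814). Chst11, a chondroitin 4-O-sulfotransferase, had a difference of 1.67 (adjusted p = 0.116), and Chpf2 the lowest, -0.26. Of 17 genes of heparan sulfate synthesis and editing 4 were higher and 3 lower, with Hs6st2 (0.82) and Ndst3 (0.77) at the upper end and Extl1 (-1.32) at the lower. Of 7 genes of keratan sulfate synthesis 1 was higher, St3gal2 (1.24, followed by B3gnt7 at 0.58), and 2 were lower, with Chst2 lowest (-1.98). Of 6 genes of the sulfate donor 0 were higher and 0 lower, with differences of 1.38 for Papss2, 0.41 for Slc26a2 and -0.26 for Impad1. Papss2 was at 5.09 to 6.84 in LFD, 6.31, 6.72 and 9.60 in HFD and 7.32 and 7.41 in ob/ob mice. HFD replicates 1 and 2 thus lay in the LFD range for Papss2.

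Among 10 genes of hyaluronan, the ligand of versican, 5 were higher and 0 lower. Has2, a hyaluronan synthase, was at 4.85 to 5.91 in LFD, 5.81, 7.67 and 7.92 in HFD and 6.78 and 8.34 in ob/ob mice, a difference of 1.90 (standard error 0.56, adjusted p = 0.118), with HFD replicate 1 in the LFD range. Hmmr had a difference of 1.71 (adjusted p = 0.0810) and Hyal1 the lowest, -0.11. Among 11 genes of proteoglycan cleavage 4 were higher and 0 lower. Adamts4, which cleaves aggrecan and versican, was at 4.58 to 5.16 in LFD, 5.72, 7.23 and 7.65 in HFD and 6.41 and 7.47 in ob/ob mice, above all LFD mice in each obese mouse (1.99, standard error 0.46, adjusted p = 0.105). Bmp1, which processes biglycan, osteoglycin and procollagen, had a difference of 1.50 (adjusted p = 0.107), and Adamts9 the lowest, -0.22.

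Markers of the cells that could carry these transcripts were counted in the same comparison, and their part in the differences was not tested. The mean of 10 fibroblast surface and receptor genes was 7.81 to 8.29 in LFD and 8.16 to 9.08 in obese mice, with 5 of 10 higher at an unadjusted p-value under 0.05 and 0 lower. Split by model at the same threshold, the fibroblast counts against LFD were 1 up and 0 down for HFD. For ob/ob they were 5 up and 1 down. The mean of 10 macrophage genes was 8.45 to 8.94 in LFD and 9.18 to 10.7 in obese mice, with 9 of 10 higher and 0 lower. Of 10 mural and smooth muscle genes 3 were higher and 0 lower, with means of 6.62 to 7.30 in LFD and 6.72 to 7.85 in obese mice. Of 10 endothelial genes 0 were higher or lower, with means of 7.06 to 7.43 and 7.08 to 7.84. Of 10 duct genes 2 were higher and 1 lower (9.48 to 9.78 and 9.18 to 10.6), and of 9 mesothelial genes 0 were higher and 3 lower (5.62 to 6.46 and 5.48 to 5.99). The pooled duct counts join unlike models. Against LFD the duct counts were 5 up and 0 down for HFD, but 1 up and 2 down for ob/ob. Set against HFD, ob/ob mice had 5 of the 10 duct genes down and 0 up. Of 10 adipocyte genes 1 was higher and 1 lower (6.96 to 7.55 and 6.34 to 7.57). For Schwann cells 4 of 6 genes were measured, with 0 higher or lower (4.95 to 5.43 and 4.76 to 5.39), and for cartilage and tendon 4 of 8, with 1 higher and 1 lower (4.73 to 4.89 and 4.85 to 5.91). Of 26 acinar genes 0 were higher and 4 lower (17.9 to 18.4 and 14.2 to 18.2), and of 10 other basement membrane genes 4 were higher and 0 lower (8.41 to 9.06 and 8.79 to 9.79).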

How the data were processed

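Total RNA of the pancreas of 8 mice was sequenced as paired-end libraries. Per the submitters' processing notes and the methods of the study, read quality was looked at with FastQC, and the authors ran Salmon 0.11.3 on Gencode M18 (GRCm38.p6), used tximport to obtain gene-level counts and took their rlog values with DESeq2 1.22.2. The deposited values are thus on a log2 scale. Counts were not used here, so sequencing depth is unknown and errors come from the spread between mice alone. The filter that left 15047 genes is not given in the sources used here. The rlog function shrinks differences of genes with few reads, and Salmon shares reads between similar transcripts, which the deposited log2 values do not show.

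Mice were grouped by the sample labels. The fit used limma 3.58.1 (R 4.3.3) with all genes and all 8 mice, with a mean for each group and a variance trend, and p-values were adjusted by Benjamini-Hochberg over all genes. The mean of both obese groups gives HFD and ob/ob equal weight. The test was tried on simulated data first. The proteoglycans and all gene lists were chosen with earlier results of these data known. All 9 members are named, and of other lists the 2 genes with the largest and the 1 with the smallest difference of the obese mean, the neighbours of members and the collagens. Extremes of the marker lists are not discussed. Positions and lengths are those of Gencode M21 (GRCm38), promoter windows those of RefSeq (GRCm38.p6), where 7 of the 9 members matched. Python 3.11.15 with pandas 2.3.3 was used for the rest. Alternatives left out the variance trend or the third group, or kept genes whose mean rlog was 5 or more. Others were median centring, quantile normalization, the replicate number as a block, the acinar mean as a covariate, other collagen references and leaving out each mouse.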

Additional observations from a re-analysis of the deposited data

How the results depend on the processing

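The groups hold 3, 3 and 2 mice and the depth is unknown, so the data limit what can be called, and a lone or unusual mouse weighs heavily. The cause of the changes below was not tested.

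Without HFD replicate 1, 2812 genes passed an adjusted p-value of 0.05 between HFD and LFD. Leaving out each mouse in turn, the genes called by adjusted p-value numbered 0 to 2812 for HFD against LFD, 0 to 89 for ob/ob against LFD, 0 to 3326 for the mean of both obese groups and 0 to 1 for ob/ob against HFD. At an unadjusted p-value under 0.05 they numbered 1480 to 5445, 752 to 4075, 2037 to 5824 and 369 to 1117. Of the 9 proteoglycans 0 to 4, 0 to 1, 0 to 3 and 0 to 0 were called by adjusted p-value, and 3 to 5, 3 to 6, 3 to 7 and 0 to 1 without adjustment. Relative to the collagens 5 to 7 were lower without overlap in HFD, 7 to 9 in ob/ob and 5 to 6 in all obese mice, and 0 to 0, 0 to 1 and 0 to 0 were higher. With all mice kept, 82.5% of all genes were lower in this way in HFD and 94.4% in ob/ob. The shares with a mouse left out are not given here.

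With only the compared groups in the fit, 1 gene was called by adjusted p-value for HFD and 38 for ob/ob against LFD, among them 1 proteoglycan, Vcan, and 353 genes without adjustment for ob/ob against HFD. Keeping genes whose mean rlog was 5 or more gave 389 in that comparison. With the acinar covariate 1595, 1502, 1674 and 1190 genes were called without adjustment in the 4 comparisons, and 1 gene by adjusted p-value in each of the last 3. Quantile normalization left 2 proteoglycans higher and 0 lower at an unadjusted p-value under 0.05 for ob/ob against LFD, where 1459 of all 15047 genes were higher and 1090 lower. Median centring turned the split of calls without adjustment for the mean of both obese groups from 2186 higher and 1639 lower genes to 1823 and 2109. With the fibroblast reference in place of the collagens 0 proteoglycans were lower without overlap in each comparison with LFD, and 3 were higher in HFD, 1 in ob/ob and 1 in all obese mice. The shares of all genes on that reference are not given here, so these counts cannot be read as particular to the proteoglycans. The median of the collagens gave 1 higher in ob/ob.

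The deviations of mice of the same number from their group means had r = -0.06, 0.11 and -0.28 between LFD and HFD, -0.10 and 0.13 between LFD and ob/ob, and 0.59 and 0.30 between HFD and ob/ob. With 3 pairs not all over 0.1 and no label that ties them, the mice were taken as sharing a number only. With the replicate block 4, 3, 5 and 0 proteoglycans had an unadjusted p-value under 0.05 and 0 an adjusted one. Among all 15047 genes 3255, 3243, 4157 and 467 had such an unadjusted p-value, and 0 an adjusted one.

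With the acinar covariate Ogn was at 0.52, 0.60 and 0.56 against LFD, and with quantile normalization Dcn was at 0.32 for the mean of both obese groups. With the replicate block Ogn was at -0.087 and Hspg2 at 0.13 for ob/ob against HFD. Leaving out each mouse in turn, Ogn ranged from -0.49 to 0.17 between HFD and LFD mice. Between ob/ob and LFD mice Dcn ranged from -0.26 to 0.80 and Ogn from -0.64 to 0.43, and for the mean of both obese groups Dcn from -0.28 to 0.26 and Ogn from -0.39 to 0.14. For ob/ob against HFD the difference of Dcn ranged from 0.025 to 1.09 and the direction of the other 8 genes turned, with Lum from -0.22 to 0.14, Bgn from -0.69 to 0.12, Fmod from -0.71 to 0.14, Ogn from -0.50 to 0.57, Aspn from -0.13 to 0.53, Prelp from -0.052 to 0.52, Vcan from -0.11 to 0.30 and Hspg2 from -0.26 to 0.32.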
